A study of Mus musculus with 36 samples.

Results

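The mRNAs of 6 proteins of sodium and calcium pumps were followed through every library of the series, namely Atp1b1, Atp1b2, Atp2a2, Atp2b1, Atp2b2 and Atp2b4. The members were chosen by name, as the rows of the deposited count table that carry these 6 gene symbols, 6 of 16614 rows in all, and all 6 passed the filter on low counts in every comparison. Their counts were read in all 36 libraries, and the ribosome footprint peaks on their listed transcripts were read in the 12 libraries for which peaks were deposited. Levels are given as CPM, a gene's counts scaled to the library's total with Cdk8 left out, since that gene took 36.7% to 63.4% of the counts in the standard footprint libraries.

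Sodium and calcium pumps of the P type use ATP to move ions across membranes. The sodium pump has a glycosylated beta subunit that brings it to the cell surface, and it restores the sodium and potassium gradients that neurons spend when they fire. Calcium that enters a neuron is cleared by the plasma membrane calcium pumps (PMCA), which push it out of the cell and are activated by calmodulin, and by the pumps of the endoplasmic reticulum (SERCA), which return it to the internal store. Atp1b1 and Atp1b2 encode beta subunits, Atp1b2 being well known from astrocytes. Atp2a2 encodes SERCA2, and Atp2b1, Atp2b2 and Atp2b4 encode PMCA1, PMCA2 and PMCA4. All of these proteins are made on membrane-bound ribosomes.

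The study compared brains of wild type (WT) C57BL/6 mice and of FMR1 KO mice, which lack the RNA-binding protein FMRP constitutively. Each preparation pooled 10 whole brains of 5-day-old mice. Ribosomes that pelleted through a sucrose gradient (the pellet, described as RNA granules with stalled ribosomes) and ribosome clusters of fraction 5/6 were digested and their protected fragments (RPFs) sequenced, and RNA-seq was made from whole homogenate. A standard nuclease preparation in 10 mM MgCl2 and a low nuclease preparation in 2.5 mM MgCl2 gave 12 groups of 3 libraries. No label ties the replicate numbers to shared animals, so p-values measure the spread between these preparations. The protocol takes the pellet and fraction 5/6 from the same gradient, so these libraries may be paired. The main tests did not pair them. A pool of brains cannot tell fewer cells of a type from less RNA per cell.

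Without Cdk8, the standard RPF libraries held 4284209 to 21274803 counts, the low RPF libraries 22378936 to 60377525 and the standard RNA-seq libraries 112240104 to 147207607. Fmr1 fell in the FMR1 KO pellet by 3.72 on the log2 scale (SE 0.17, edgeR adjusted p = 0.00513), in the direction of the labels. The library labelled WT fraction 5/6 replicate 3 went against its label, with Fmr1 at 3.17 CPM beside 100.1 and 68.6 CPM in the other WT fraction 5/6 libraries. Standard RNA-seq of FMR1 KO held 0.061 to 0.131 CPM of the Y-linked Ddx3y where WT held 35.4 to 38.0 CPM, and Eif2s3y, also Y-linked, had 0 counts in all 3. Standard RPFs of FMR1 KO held Ddx3y at 33.6 CPM or more. Of the 6 low RNA-seq libraries, 3 stood apart with 82.4% to 85.0% of counts in 10 genes, and no test used the low RNA-seq. Every fixed marker of neurons was detected, and the summed neuron markers ranged from 4951 to 10651 CPM over the standard libraries.

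Atp1b1 was the most abundant beta subunit mRNA per kb, at 109 ± 55.4 CPM per kb in the standard WT pellet and 35.2 ± 2.93 CPM per kb in standard WT RNA-seq (SD, n = 3). It lies at chr1:164437109-164458355 on the minus strand of GRCm38, and its listed transcript encodes 304 codons. The WT pellet of the standard preparation held 68.7, 71.8 and 158 CPM and the FMR1 KO pellet 97.1, 54.9 and 99.7 CPM. In fraction 5/6 the WT libraries held 65.2, 43.4 and 101 CPM and the FMR1 KO libraries 60.6, 66.4 and 103 CPM. RNA-seq held 84.3, 88.8 and 99.0 CPM in WT and 94.3, 81.5 and 87.8 CPM in FMR1 KO. The genotypes overlapped in each of these 3 kinds of library, and WT pellet replicate 3 was the highest of the pellet libraries.

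The low preparation gave higher levels of Atp1b1. The WT pellet held 309, 262 and 415 CPM and the FMR1 KO pellet 107, 292 and 224 CPM, against 144, 211 and 213 CPM and 79.1, 203 and 170.2 CPM in fraction 5/6. The pellet lay above fraction 5/6 in all 3 WT libraries, and its range overlapped that of fraction 5/6 in FMR1 KO. Taken by replicate number, each FMR1 KO pellet value lay above that of fraction 5/6. Low RNA-seq ran from 30.5 to 732 CPM, and its lowest values came from libraries that stood apart.

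Atp1b1 was also the pump transcript on which most footprint peaks had been deposited, 94 peaks over all 12 libraries with peaks, 93 of them with their middle in the coding sequence and 1 in the 5′ UTR. The intervals avoided a long stretch. No library had a peak over the 303 nt from codon 84 to codon 184 of Atp1b1, on exons 3 and 4, while 65.0% of the coding sequence lay under a peak in at least 1 library. The cause of the gap was not tested.

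**Figure D1:**
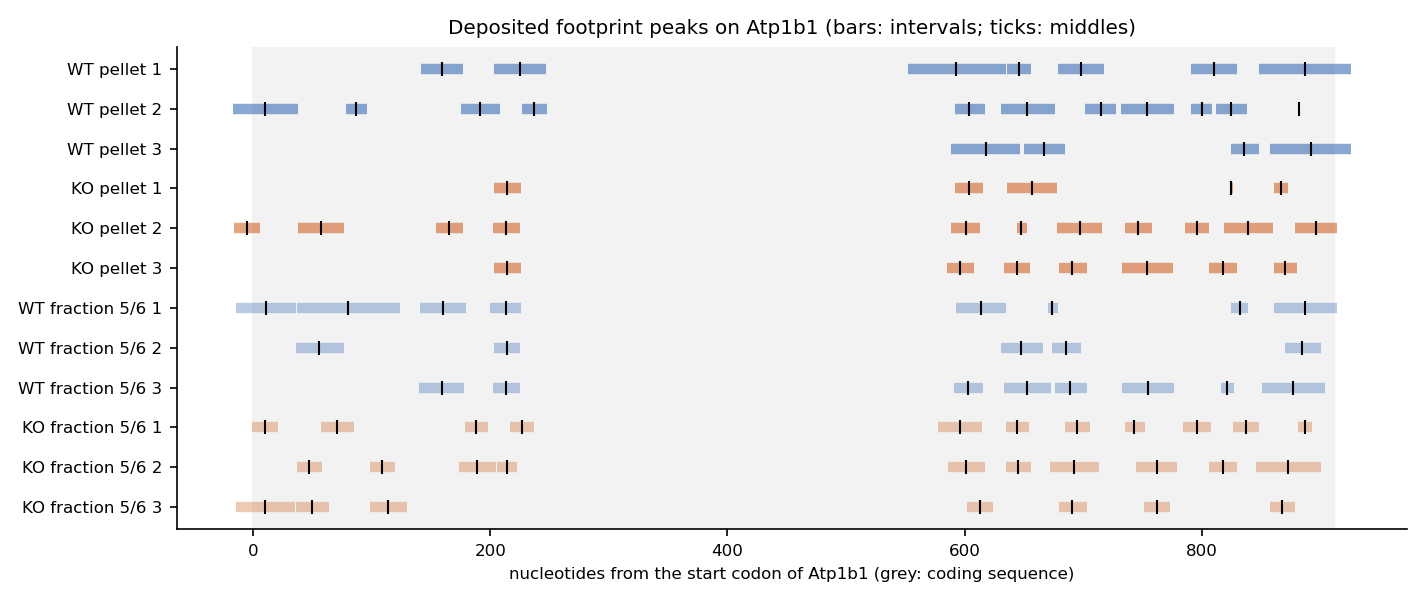
Deposited footprint peaks on the Atp1b1 transcript in each of 12 standard libraries (rows), by distance in nucleotides from the start codon (x axis); bars are peak intervals, ticks their middles, blue WT, orange FMR1 KO, and the grey field is the coding sequence. Both genotypes and both fractions have peaks before nucleotide 249 and after nucleotide 551 and none between.

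The tallest Atp1b1 peak of each pellet library fell in the second cluster. In WT it stood at codons 198, 202 and 207, with heights of 67, 30 and 75 reads, and in FMR1 KO at codons 202, 233 and 215, with heights of 72, 36 and 49 reads. Peaks with middles within 6 nt of each other were counted as 1 site, and no pump site was found in all 6 pellet libraries. Where any overlap of intervals counted instead, a rule chosen after seeing the data, 4 Atp1b1 stretches lay under a peak in all 6 pellet libraries, at codons 198 to 203, 215 to 216, 217 to 218 and 276.

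The Atp1b1 sites shared by 3 or more pellet libraries are printed below because they carry the recurrent footprints of these genes, as 29 nt windows of the transcript strand centred on the site. Capitals mark 4-letter motifs linked to FMRP binding, searched on the transcript strand only, which may overlap one another. They were TGGA with its variant AGGA, then GACA with its variant GACG, and ACTT with its variant ACTG. The sequences are from the GENCODE M21 transcripts of GRCm38.
Atp1b1 codon 72, across the junction of exons 2 and 3: ataccAGGAccgagtggccccgccAGGAt
Atp1b1 codon 201, exon 5, chr1:164439334-164439362, minus strand: ggagACTTacccACTGatgatgaagtata
Atp1b1 codon 217, across the junction of exons 5 and 6: ttcagtgcACTGgcaagagagatgaagat
Atp1b1 codon 233, exon 6, chr1:164438479-164438507, minus strand: agagtACTTtgggatgggcggatactacg
Atp1b1 codon 298, exon 6, chr1:164438284-164438312, minus strand: ggGACGctttgatgtaaaaattgaaatta
Sites at codons 201 and 217 were each found in 4 pellet libraries, the first in 1 WT and 3 FMR1 KO libraries and the second in 2 of each genotype. The site at codon 72 was matched in 3 FMR1 KO and 0 WT pellet libraries. It was also matched in 4 libraries of fraction 5/6, and WT pellet replicate 1 had an interval from position 702 to 746 of the transcript that covered the site at position 713.

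Atp1b2, the second beta subunit, lies at chr11:69599736-69605942 on the minus strand and encodes 290 codons. The standard pellet held 24.7, 26.3 and 44.9 CPM in WT and 26.3, 18.0 and 37.9 CPM in FMR1 KO, beside 18.1, 13.6 and 38.6 CPM and 20.0, 26.3 and 29.9 CPM in fraction 5/6. RNA-seq held 52.7, 44.8 and 58.5 CPM in WT and 53.1, 42.5 and 45.9 CPM in FMR1 KO. Except for WT pellet replicate 3, every standard RPF library lay below every standard RNA-seq library on this scale. The low pellet held 92.3, 79.5 and 125 CPM in WT and 32.4, 97.3 and 69.9 CPM in FMR1 KO.

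Atp1b2 carried 21 peaks in 8 libraries, all in its coding sequence and with heights of at most 16 reads. A single site recurred in 3 pellet libraries, 2 WT and 1 FMR1 KO, and it lies near the start of the coding sequence.
Atp1b2 codon 23, exon 1, chr11:69605290-69605318, minus strand: gagttcgtgTGGAacccgcgGACGcacca

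The 3 PMCA transcripts moved together from library to library. Over the 12 low RPF libraries, Pearson's r of log2(CPM + 1) was 0.98 for Atp2b1 with Atp2b2, 1.00 for Atp2b1 with Atp2b4 and 0.98 for Atp2b2 with Atp2b4, which describes libraries that share their fraction and depth. Atp2b1 (chr10:98914406-99026143, plus strand, 1220 codons) had 41.7, 40.2 and 96.0 CPM in the standard WT pellet and 69.8, 29.1 and 56.4 CPM in the FMR1 KO pellet. Fraction 5/6 had 19.9, 11.9 and 55.4 CPM in WT and 18.9, 22.1 and 34.8 CPM in FMR1 KO. RNA-seq had 56.3, 46.0 and 54.4 CPM in WT and 48.3, 43.7 and 53.3 CPM in FMR1 KO. The 55.4 CPM came from the library that went against its WT label, and it lay above 2 of the 3 WT pellet libraries.

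Atp2b2 (chr6:113743831-114042613, minus strand, 1243 codons) encodes PMCA2, a fast pump of neurons. It had 25.1, 27.1 and 53.8 CPM in the standard WT pellet and 39.4, 21.6 and 39.8 CPM in the FMR1 KO pellet. Fraction 5/6 had 10.2, 6.47 and 37.8 CPM in WT and 12.5, 12.2 and 21.01 CPM in FMR1 KO. RNA-seq had 65.6, 71.0 and 80.0 CPM in WT and 65.9, 59.2 and 60.4 CPM in FMR1 KO, above every standard RPF library.

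Atp2b4 (chr1:133699457-133801041, minus strand, 1205 codons) was the least abundant of the 6 per kb in the standard WT pellet (6.44 ± 3.07 CPM per kb, SD, n = 3). The standard pellet held 17.1, 16.7 and 36.1 CPM in WT and 21.1, 12.2 and 19.2 CPM in FMR1 KO. Fraction 5/6 had 6.86, 6.02 and 20.3 CPM in WT and 7.63, 8.11 and 11.9 CPM in FMR1 KO. RNA-seq had 44.4, 43.2 and 42.1 CPM in WT and 38.3, 33.4 and 35.2 CPM in FMR1 KO. Here the genotypes of standard RNA-seq did not overlap, but the fold change was -0.25 on the log2 scale (SE 0.10) with an edgeR adjusted p of 0.999. How many of all genes had genotypes apart in these libraries was not counted.

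In the low preparation the PMCA transcripts separated the pellet from fraction 5/6 in WT. Atp2b1 had 197, 196 and 267 CPM in the WT pellet against 44.4, 84.5 and 73.3 CPM in fraction 5/6. Atp2b2 had 136, 137 and 201 CPM against 30.6, 59.4 and 65.7 CPM, and Atp2b4 had 83.0, 87.1 and 114 CPM against 20.2, 37.5 and 34.9 CPM. In FMR1 KO, pellet replicate 1 was the lowest pellet library for all 6 pumps, for example 74.4 CPM of Atp2b1 beside 199 and 148 CPM.

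Of the 3 PMCA members only Atp2b1 had deposited peaks on its listed transcript, 38 in 5 libraries, with heights of at most 20 reads. A single site was found in 3 pellet libraries, 1 WT and 2 FMR1 KO. Atp2b2 and Atp2b4 had no deposited peak on their listed transcripts in any of the 12 libraries. Their counts in the standard pellet, which are per gene, were 271 to 641 and 153 to 430. Peaks on other transcripts of these genes were not read.
Atp2b1 codon 838, exon 16, chr10:99014515-99014543, plus strand: caACTTtacaagcattgtcaaagcagtta

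Atp2a2 (chr5:122453513-122502225, minus strand, 1044 codons) gave the widest spread of the 6 in the standard RPF libraries. The WT pellet held 329.9, 63.7 and 137 CPM and the FMR1 KO pellet 439, 292 and 426 CPM, beside 61.1, 19.0 and 87.1 CPM and 202, 292 and 49.5 CPM in fraction 5/6. RNA-seq was even, with 77.2, 76.4 and 97.8 CPM in WT and 83.0, 68.1 and 87.5 CPM in FMR1 KO. In the low preparation the WT pellet held 269, 274 and 391 CPM and the FMR1 KO pellet 101, 307 and 213 CPM.

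The high Atp2a2 values went with another gene, Pptc7, which was chosen after its values were seen. Pptc7 encodes a mitochondrial phosphatase and lies 129232 nt from Atp2a2 on the opposite strand of chromosome 5, without overlap. In the standard WT pellet the counts of Atp2a2 were 7018, 779 and 1631, and those of Pptc7 were 5849, 86 and 60. In the FMR1 KO pellet they were 6764, 3663 and 5315 for Atp2a2 and 5313, 3110 and 4217 for Pptc7. In fraction 5/6 they were 1016, 167 and 1071 against 651, 38 and 77 in WT, and 1954, 3850 and 212 against 1713, 3490 and 46 in FMR1 KO. Pptc7 stood at 78.5% to 90.6% of the Atp2a2 count in the 6 standard RPF libraries with most Atp2a2 (202 to 439 CPM), while WT pellet replicate 3, with 137 CPM, had 3.68%.

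Over the 12 standard RPF libraries the 2 genes had a Pearson's r of 0.86 on log2(CPM + 1), against -0.33 over the 12 low RPF libraries. When the Pptc7 counts were subtracted from those of Atp2a2, an alternative chosen after seeing the data, r of Atp2a2 with Atp2b1 went from 0.45 to 0.99 over the standard libraries. The low libraries gave 0.99 without any subtraction. The r values of the standard libraries come from the libraries that prompted the subtraction and do not test it. After subtraction the pellet level of Atp2a2 was 81.1 ± 43.9 CPM for WT and 75.4 ± 27.3 CPM for FMR1 KO (SD, n = 3), and the tallest deposited peak on Atp2a2 had a height of 18 reads. Fold changes of Atp2a2 from all standard RPF libraries of a comparison are therefore given with and without the Pptc7 counts. Without them means that a number equal to the Pptc7 count was subtracted from Atp2a2 in the standard RPF libraries only. Low RPF and RNA-seq counts were left as they were. Whether the Atp2a2 counts hold any reads of Pptc7 is not known. Values with a library left out had no subtraction. What the 2 genes share in these libraries was not tested.

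**Figure D2:**
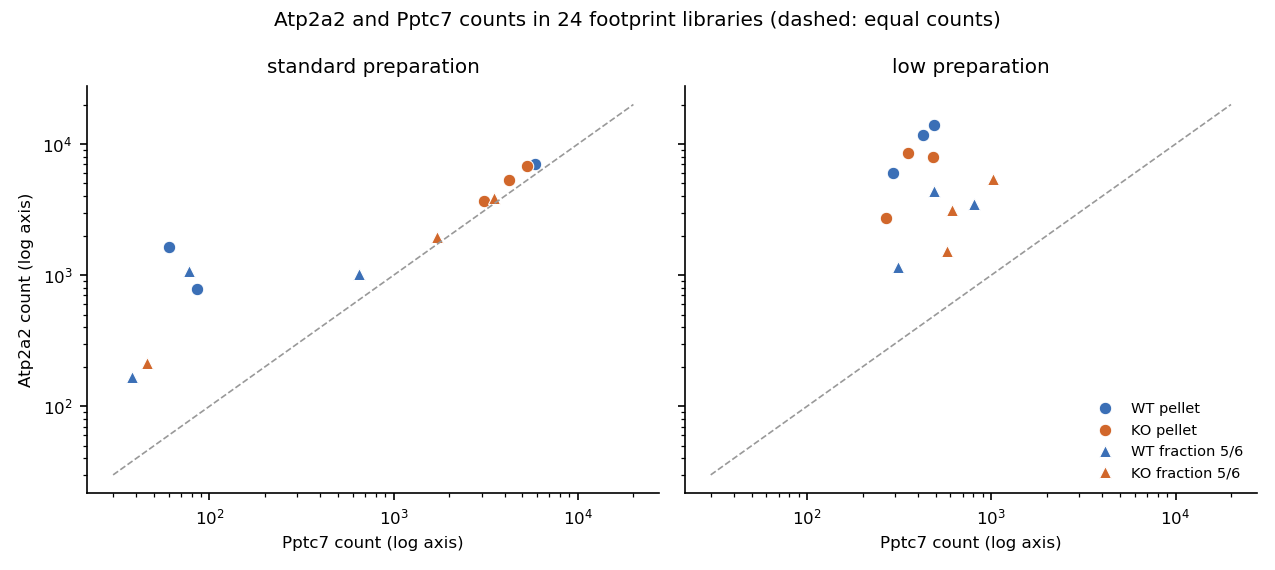
Raw counts of Atp2a2 (y axis) against Pptc7 (x axis), both on log axes, in the 12 standard RPF libraries (left) and the 12 low RPF libraries (right); each point is a library and the dashed line marks equal counts. In the standard preparation the 6 libraries with most Atp2a2 lie just above the line, at Pptc7 counts of 1713 to 5849, others such as WT pellet replicate 3 (1631 and 60 counts) lie far above it, and so do the low libraries.

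**Figure D3:**
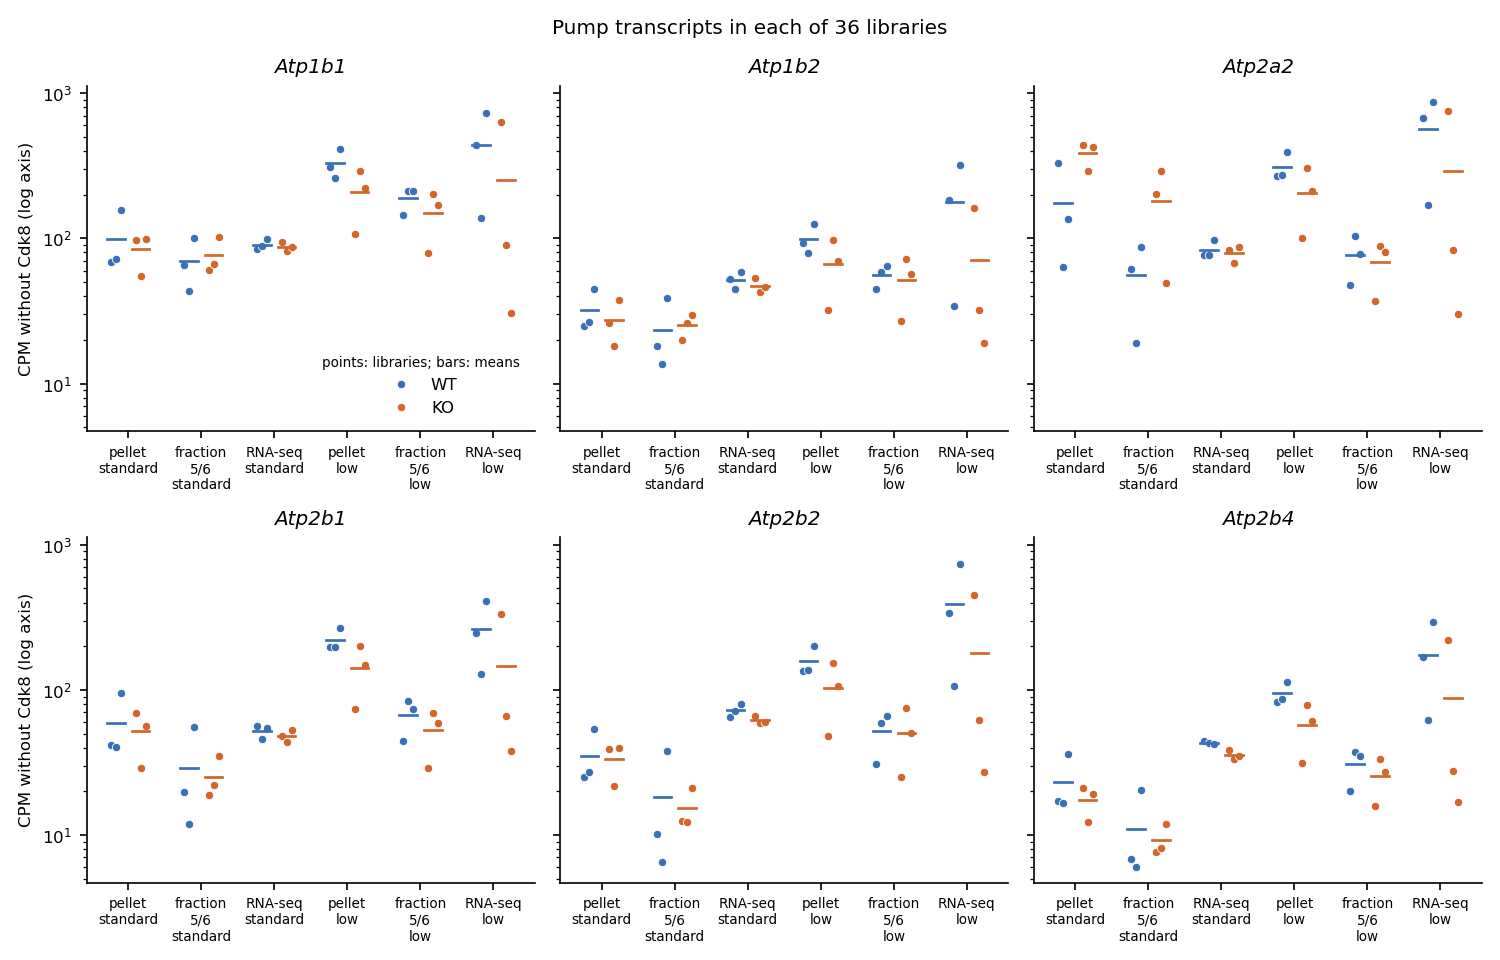
Level of each pump transcript in CPM without Cdk8 (log axis) in all 36 libraries, by group; points are libraries, bars are group means of 3, blue is WT and orange FMR1 KO. Except for Atp2a2, the mean of the low pellet lies above that of the standard pellet in both genotypes. Atp2a2 is higher in the standard pellet of FMR1 KO, where its counts include those that go with Pptc7. Without them that mean is 75.4 CPM, against 207 CPM in the low pellet.

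Ordered by mean level over the 12 groups, each of the 6 was highest in low RNA-seq of WT and lowest in standard fraction 5/6 of one genotype. Neighbouring groups in this order had overlapping libraries in 11 of 11 steps for 5 of the pumps and in 10 of 11 steps for Atp2b4. The exception was standard RNA-seq of WT and FMR1 KO. Groups next to each other by mean are close by construction. The share of such steps over all genes was not counted, so no result about the pumps is drawn from them.

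Occupancy, the pellet RPFs against RNA-seq of the same genotype, asks how many pelleted ribosomes an mRNA carried for its amount. In WT, 3 of the 6 pumps were called higher and 0 lower, where 31.1% of all 16166 genes tested were called higher and 65.4% were called in either direction. Atp1b1 had a log2 fold change of 1.32 (SE 0.36, adjusted p = 0.0129), Atp2b1 of 1.37 (SE 0.38, adjusted p = 0.0137) and Atp2a2 of 2.27 (SE 0.56, adjusted p = 0.00853), or 1.15 (SE 0.38, adjusted p = 0.0295) for Atp2a2 without the Pptc7 counts, all by edgeR's quasi-likelihood test. The other 3 lay nearer to 0 and were not called, at 0.48 (SE 0.27) for Atp1b2, 0.29 (SE 0.33) for Atp2b4 and 0.15 (SE 0.32) for Atp2b2. The median of the 6 was 0.90 and that of all genes -0.11.

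The same 3 pumps were called in FMR1 KO, where 31.9% of 16132 genes were called higher and 67.1% in either direction. Atp1b1 had a log2 fold change of 1.01 (SE 0.12, edgeR adjusted p = 0.000245) and Atp2b1 of 1.17 (SE 0.19, edgeR adjusted p = 0.00137), which turned to -1.20 and -1.04 by library size alone. Atp2a2 had 3.38 (SE 0.13), and 0.99 (SE 0.17, edgeR adjusted p = 0.00156) without the Pptc7 counts. Atp1b2, Atp2b2 and Atp2b4 stood at 0.29, 0.20 and 0.07 and were not called. Here Ddx3y was at 33.6 to 44.1 CPM in the pellet and at 0.061 to 0.131 CPM in RNA-seq, a gap shared by every comparison with FMR1 KO RNA-seq, and its part in the results was not tested.

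These signs are relative to other genes, since TMM sets the scale by the bulk of genes. Scaled by library size alone, the median of all genes in WT occupancy was shifted to -2.13 and the fold changes of Atp1b1 and Atp2b1 turned to -0.74 and -0.69. Measured from the median of all genes, Atp1b1 stood at 1.43 by TMM and 1.39 by library size, and Atp2b1 at 1.48 and 1.44. Without WT RNA-seq replicate 2, Atp2b1 was no longer called (1.31, edgeR adjusted p = 0.0530), and without WT pellet replicate 3, Atp2b2 was called lower at -0.36. The summed markers of the oligodendrocyte lineage ranged from 100.45 to 185 CPM in the standard pellet and from 472 to 862 CPM in standard RNA-seq, and those of red blood cells from 3.59 to 15.7 CPM and from 206 to 485 CPM, and their part in occupancy was not tested.

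**Figure D4:**
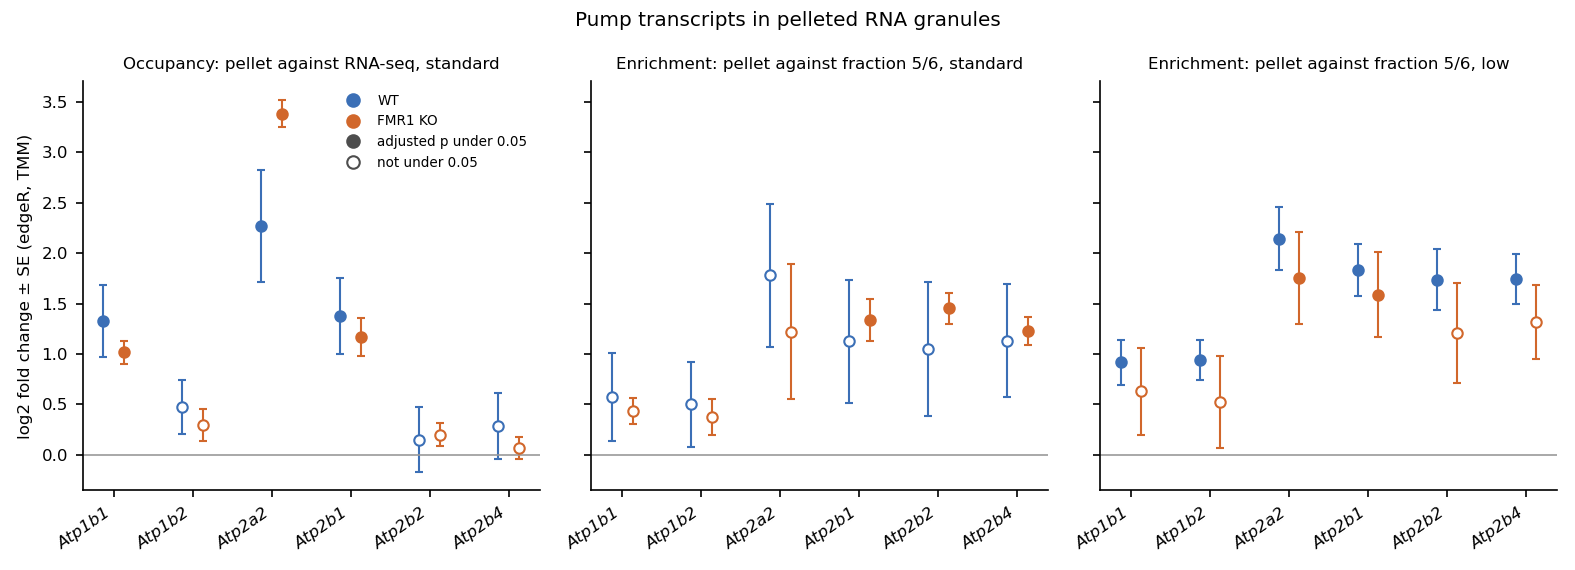
Log2 fold change with its SE (y axis, edgeR with TMM) of each pump in occupancy and in enrichment of the standard and the low preparation; blue is WT, orange FMR1 KO, and filled points have an adjusted p under 0.05. Atp1b1, Atp2a2 and Atp2b1 are filled in occupancy of both genotypes, where scaling by library size alone turns the sign of Atp1b1 and Atp2b1, and the Atp2a2 values of the standard preparation include the counts that go with Pptc7.

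Fraction 5/6 was also set against RNA-seq. In FMR1 KO, where 62.9% of 16146 genes were called, 29.8% higher and 33.2% lower, Atp2b2 fell by 1.15 and Atp2b4 by 1.06 on the log2 scale (edgeR adjusted p = 7.1e-05 and 0.000131), and Atp1b1 rose by 0.69 (SE 0.10, adjusted p = 0.000587). Atp2b1 stood at -0.07 (SE 0.10, edgeR adjusted p = 0.59) and Atp1b2 at 0.02 (SE 0.13, adjusted p = 0.883), and neither was called. Atp2a2 rose by 2.27 (SE 0.65, edgeR adjusted p = 0.0173) with the Pptc7 counts and went to -0.49 (SE 0.11, adjusted p = 0.00489) without them. With those counts, it was not called without FMR1 KO fraction 5/6 replicate 2 (1.73) or FMR1 KO RNA-seq replicate 2 (2.22). Nor was it called with replicate number as a block (1.87, SE 0.71, edgeR adjusted p = 0.0674). By library size alone, Atp1b1 turned to -1.07.

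In WT, where 55.9% of 16172 genes were called and 24.7% called higher, only Atp1b1 was called, at 0.71 (SE 0.22, edgeR adjusted p = 0.0309). That call was lost without any one of the WT RNA-seq libraries (0.68, 0.73 and 0.77, edgeR adjusted p from 0.0649 to 0.0882). When the fraction 5/6 library at odds with its WT label was left out, 5 pumps were called, Atp2b2 lower at -1.85, Atp2b4 at -1.47, Atp2b1 at -0.46 and Atp1b2 at -0.44, with Atp1b1 higher at 0.52. Atp2a2 stood at 0.44 (SE 0.38) with the Pptc7 counts and at -0.05 (SE 0.53) without them, and neither was called. With the Pptc7 counts and without WT fraction 5/6 replicate 2, it was called higher at 0.82. By library size alone all 6 were called lower.

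Enrichment, the pellet against fraction 5/6, was above 0 by TMM for all 6 pumps in both genotypes and both preparations, and also by library size alone except for Atp1b1 and Atp1b2 in the standard preparation of FMR1 KO. In the low preparation of WT, all 6 were called higher, where 14.3% of 15587 genes were called higher and 22.8% in either direction. The log2 fold changes were 2.14 (SE 0.31, edgeR adjusted p = 0.0108) for Atp2a2, 1.83 (SE 0.26, adjusted p = 0.0102) for Atp2b1, 1.74 (SE 0.25, adjusted p = 0.0104) for Atp2b4 and 1.74 (SE 0.30, adjusted p = 0.0162) for Atp2b2. The beta subunits had smaller values, 0.94 (SE 0.20, edgeR adjusted p = 0.0241) for Atp1b2 and 0.92 (SE 0.22, adjusted p = 0.0342) for Atp1b1. The median of the 6 was 1.74 and that of all genes -0.02. The 4 calcium pumps stayed called without any single library, while Atp1b1 lost its call without any one of them (0.69 to 1.02) and Atp1b2 without WT pellet replicate 1 or 3 or fraction 5/6 replicate 1 or 2. With 2 libraries left in each group, 1 pump was called without replicate number 1, 1 without number 2 and 0 without number 3.

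In FMR1 KO of the low preparation, 2 of 6 were called higher, Atp2a2 at 1.75 (SE 0.46, edgeR adjusted p = 0.045) and Atp2b1 at 1.59 (SE 0.42, adjusted p = 0.046), where 8.79% of 15581 genes were called higher and 20.5% in either direction. Atp2b4 stood at 1.32 (SE 0.37, edgeR adjusted p = 0.0531), Atp2b2 at 1.20, Atp1b1 at 0.63 and Atp1b2 at 0.52. Both calls were lost without any one of the FMR1 KO libraries except pellet replicate 1, and without that library Atp2b4 was called too, at 1.57. The number of pumps called here was 0 by library size alone, 4 by DESeq2 and 6 with replicate number as a block. Whether the low enrichment differed between the genotypes was not tested.

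In the standard preparation of FMR1 KO, the 3 PMCA transcripts were called higher, where 9.09% of 13248 genes were called higher and 11.4% in either direction. Atp2b2 had a log2 fold change of 1.45 (SE 0.15, edgeR adjusted p = 0.00313), Atp2b1 of 1.34 (SE 0.21, adjusted p = 0.0118) and Atp2b4 of 1.23 (SE 0.14, adjusted p = 0.00435). Atp1b1 at 0.43 (SE 0.13) and Atp1b2 at 0.38 (SE 0.18) were not called, and Atp2a2 went from 1.22 (SE 0.67, edgeR adjusted p = 0.257) to 1.59 (SE 0.18, adjusted p = 0.00383) when the Pptc7 counts were taken out. Without FMR1 KO fraction 5/6 replicate 1, Atp2b1 was not called (edgeR adjusted p = 0.0640), and without FMR1 KO pellet replicate 2, Atp1b1 was (0.54, edgeR adjusted p = 0.0338). None of the 6 was called by library size alone (0) or without replicate number 1 or 3 of both fractions (0 and 0).

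In the standard preparation of WT none of the 6 was called by edgeR, with log2 fold changes from 0.50 for Atp1b2 to 1.13 for Atp2b4 and, for Atp2a2, 1.78 (SE 0.71) with the Pptc7 counts and 1.15 (SE 0.69) without them, and 0.0229% of 13076 genes were called. When the fraction 5/6 library at odds with its WT label was left out, the fold changes of Atp2b1, Atp2b2 and Atp2b4 became 1.90, 2.06 and 1.81, with edgeR adjusted p of 0.0929, 0.0578 and 0.0942. Without replicate 3 of both fractions, Atp2b1 (1.28), Atp2b2 (1.54) and Atp2b4 (1.27) were called. The test of whether standard enrichment differed between the genotypes called none of the 6 and 0% of 13679 genes, of which 769 had an unadjusted p under 0.05, with differences from -0.11 (SE 0.48) for Atp1b1 to 0.43 (SE 0.73) for Atp2b2 among the 5 other than Atp2a2. Atp2a2 stood at -0.54 (SE 1.06) with the Pptc7 counts and turned to 0.47 (SE 0.76) without them.

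The pellet of the standard preparation was then set against that of the low preparation. These groups differ in buffer, nuclease treatment and the way monosomes were collected. In WT, 4 pumps were called lower in the standard preparation, where 23.8% of 14754 genes were called lower and 38.9% in either direction. They were Atp2b2 at -1.61 (SE 0.38, edgeR adjusted p = 0.0214), Atp2b4 at -1.47 (SE 0.38, adjusted p = 0.0271), Atp2b1 at -1.33 (SE 0.42, adjusted p = 0.0467) and Atp1b2 at -1.09 (SE 0.32, adjusted p = 0.0397), and Atp1b1 stood at -1.17 (SE 0.41, adjusted p = 0.0649). Atp2a2 went from -0.26 to -1.39 (SE 0.43, edgeR adjusted p = 0.0455) without the Pptc7 counts. That subtraction touched the standard side only, which lowers this value. In the low WT pellet, left as it was, Pptc7 stood at 3.48% to 4.87% of Atp2a2. None of the 4 stayed called without standard replicate 1 or 2 or without low replicate 3, and without low replicate 1 or 2 only Atp2b2 did. Without standard replicate 3 all 4 and Atp1b1 were called.

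In FMR1 KO, Atp2b4 was called lower in the standard pellet at -1.18 (SE 0.29, edgeR adjusted p = 0.0443) and Atp2a2 higher at 1.43 (SE 0.36, adjusted p = 0.0451), or -0.19 by library size alone, where 16.7% of 14713 genes were called, 7.34% higher and 9.35% lower. Without the Pptc7 counts Atp2a2 stood at -0.96 (SE 0.37, edgeR adjusted p = 0.112). Here too the low side was left as it was, with Pptc7 at 4.13% to 9.94% of Atp2a2. No pump was called without any one of the standard libraries or without low replicate 3, and without low replicate 1, the lowest low library for each pump, Atp2a2 was called higher and the other 5 lower. With all libraries, the number of pumps called was 5 by library size alone, 4 by DESeq2, 1 with no filter on low counts and 0 with replicate number as a block.

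The direct comparison of FMR1 KO with WT called none of the 6 pumps in any of 5 kinds of library. On simulated counts of the standard pellet, the test recovered only 10.2% of changes of 1 on the log2 scale. In the standard pellet, where 0.0150% of 13370 genes were called by edgeR and 709 had an unadjusted p under 0.05, the log2 fold changes were -0.27 (SE 0.38) for Atp1b1, -0.24 (SE 0.31) for Atp1b2, -0.24 (SE 0.43) for Atp2b1, -0.09 (SE 0.35) for Atp2b2 and -0.42 (SE 0.36) for Atp2b4. Atp2a2 stood at 1.13 (SE 0.57, edgeR adjusted p = 0.869) with the Pptc7 counts and at -0.15 (SE 0.42, adjusted p = 0.999) without them. In the low pellet, where 0.0197% of 15264 genes were called and 661 had an unadjusted p under 0.05, all 6 values were negative, from -0.65 (SE 0.32) for Atp2b4 to -0.49 (SE 0.38) for Atp1b2, each with an edgeR adjusted p of 0.907. FMR1 KO pellet replicate 1 was the lowest of the 6 low pellet libraries for each pump.

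In standard fraction 5/6, 0% of 13075 genes were called by edgeR and 590 had an unadjusted p under 0.05. The pumps ran from -0.55 (SE 0.43) for Atp2b4 to -0.16 (SE 0.33) for Atp1b2, with Atp2a2 at 1.65 (SE 0.79), or -0.62 (SE 0.54) without the Pptc7 counts. With that doubtful WT library left out the other 5 changed sign, to between 0.10 and 0.47, still with no call. In low fraction 5/6, where 0.0445% of 15740 genes were called and 1348 had an unadjusted p under 0.05, the pumps ran from -0.37 (SE 0.34) for Atp2b1 to -0.07 (SE 0.41) for Atp2b2.

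Standard RNA-seq gave the narrowest values, from -0.25 (SE 0.10) for Atp2b4 to -0.02 (SE 0.10) for Atp1b1, where 0.0735% of 16334 genes were called by edgeR and 422 had an unadjusted p under 0.05. The test of whether occupancy differed between the genotypes called none of the 6 and 0.0672% of 16372 genes, of which 1011 had an unadjusted p under 0.05. Its differences ran from -0.27 (SE 0.42) for Atp1b1 to 0.09 (SE 0.38) for Atp2b2, with Atp2a2 at 1.15 (SE 0.62), or -0.11 (SE 0.46) without the Pptc7 counts.

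Per kb, the make-up of the beta subunit and PMCA families differed between RNA-seq and RPFs. Lengths were those of the listed transcript for RNA-seq and of its coding sequence for RPFs. Among beta subunits, Atp1b1 made up 49.8% ± 4.1 of the family's CPM per kb in WT RNA-seq and 71.2% ± 2.8 in the WT pellet (SD, n = 3), while Atp1b2 held 25.8% ± 1.6 and 25.1% ± 2.5. Atp1b3, the third beta subunit, had 24.5% ± 4.2 of RNA-seq and 3.73% ± 0.30 of the pellet, and its occupancy was -1.75 on the log2 scale (edgeR adjusted p = 0.00167). FMR1 KO gave close values, with 49.9%, 24.3% and 25.8% in RNA-seq and 72.0%, 24.5% and 3.49% in the pellet for Atp1b1, Atp1b2 and Atp1b3.

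Among PMCA transcripts the leading member changed. Atp2b2 held 51.8% ± 3.4 of the family's CPM per kb in WT RNA-seq and 27.8% ± 1.7 in the WT pellet, and Atp2b1 held 24.1% ± 2.2 and 46.5% ± 1.6 (SD, n = 3). Atp2b4 had 17.6% ± 1.2 and 18.8% ± 0.4, and Atp2b3 had 6.41% ± 0.76 and 6.83% ± 0.81. The listed Atp2b2 transcript has a short 3′ UTR, and with the union of exons as the length its share of WT RNA-seq was 39.5%, with Atp2b1 at 23.7%, so the order of the pair still differed from the pellet. Fraction 5/6 of WT had 46.7% Atp2b1 and 26.4% Atp2b2, close to the pellet. Low RNA-seq of WT gave Atp2b2 51.5% and Atp2b1 26.5%, but Atp1b3 only 7.03%, unlike the 24.5% of standard RNA-seq. These shares carry no test beyond the 3 libraries' ranges, which did not overlap between WT RNA-seq and the WT pellet for Atp1b1, Atp1b3, Atp2b1 and Atp2b2. How often such ranges lie apart among other genes was not counted. SERCA transcripts were almost all Atp2a2, at least 99.0% of the family per kb in every standard RNA-seq and standard pellet library. The pellet shares include the counts that go with Pptc7, and shares without them were not computed.

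**Figure D5:**
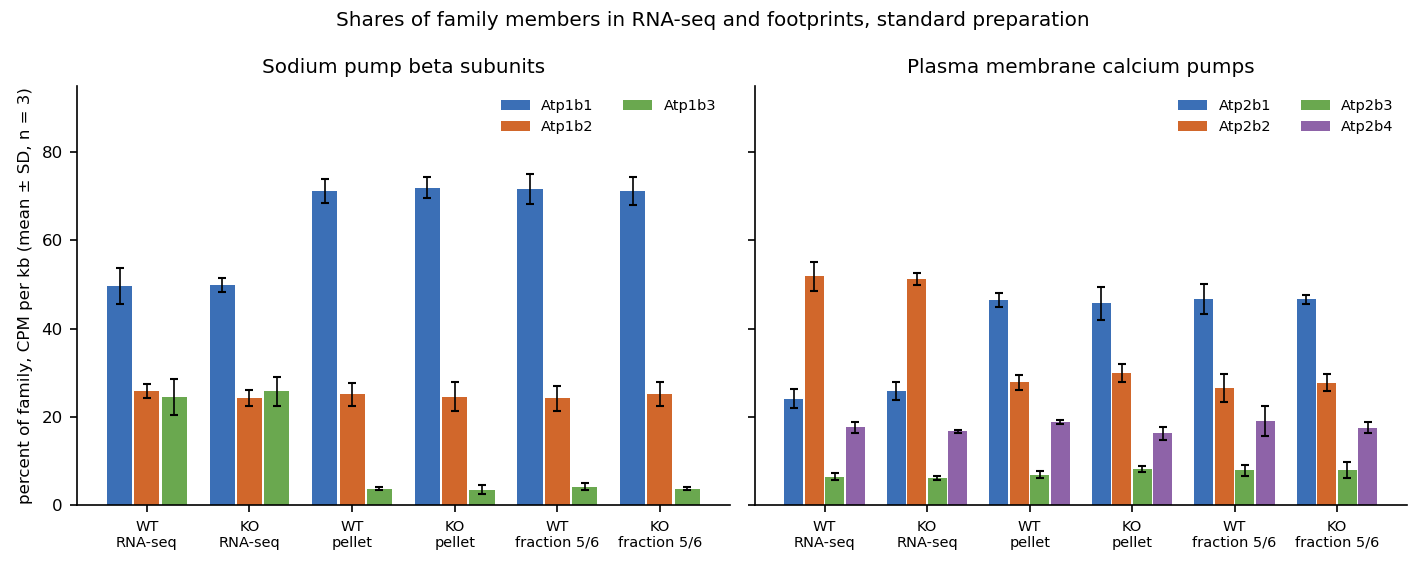
Share of each transcript in its pump family (y axis, percent of the family's CPM per kb, mean with SD of 3 libraries) in the standard preparation, by genotype and library type. Atp1b3 takes 24.5% of WT RNA-seq and 3.73% of the WT pellet, and Atp2b1 and Atp2b2 exchange places between RNA-seq and RPFs in both genotypes.

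Relatives and partners of the pumps were taken from a list of 31 genes, 27 of which are in the count table. In WT occupancy, 15 of 26 tested were called, where 65.4% of all genes were, 4 of them higher and 11 lower, among them Fxyd6 (-1.90), Fxyd2 (-3.18), Calm3 (-1.33) and Slc8a3 (-1.84), which are FXYD regulators of the sodium pump, a calmodulin and a sodium-calcium exchanger. Among the higher ones was Atp2b3 (PMCA3), at 1.16. In FMR1 KO occupancy, 13 of 26 were called, where 67.1% of all genes were, 5 higher and 8 lower, with Fxyd6 at -1.98, Atp2b3 at 1.38 and Atp1b3 at -2.11. These signs too are relative to the TMM scale. Median log2 fold changes of the list were -0.45 in WT and -0.37 in FMR1 KO.

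In enrichment in the low preparation of WT, 8 of 24 were called higher and 2 lower, where 14.3% of all genes were called higher and 22.8% in either direction, with the sodium-calcium exchanger Slc8a1 at 1.70. In the low preparation of FMR1 KO, 2 of 23 were called higher and 3 lower, where 8.79% of all genes were called higher and 20.5% in either direction. In the standard preparation of FMR1 KO, 6 of 16 were called higher and 0 lower, where 9.09% of all genes were called higher and 11.4% in either direction, with the exchangers Slc8a1 at 1.37 and Slc8a2 at 1.44, and in WT 0 of 17 were called by edgeR, where 0.0229% of all genes were. For fraction 5/6 against RNA-seq, 0 of 27 were called higher and 11 lower in WT, where 24.7% of all genes were called higher and 55.9% in either direction. In FMR1 KO, 1 of 25 was called higher and 12 lower, where 29.8% of all genes were called higher and 33.2% lower. No relative was called between the genotypes in any kind of library.

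By the pattern of log2 CPM over all 36 libraries, the genes most like each pump among 16150 genes were named. Atp2b2 and Atp2b4 were nearest to each other (r = 0.992), followed by Nfasc for Atp2b2 (0.989) and Atrn for Atp2b4 (0.990). Atp2b1 was nearest to Mia3 and Atp2b3 (both 0.983), Atp1b1 to Cpe (0.986) and B4gat1 (0.984), and Atp1b2 to Arsb (0.975) and Faah (0.972). Atp2a2 had no neighbour that close, with Lamb2 and Plat at 0.813, and its counts here include those that go with Pptc7. Over the 12 low RPF libraries alone, its r of log2(CPM + 1) with Atp2b1 was 0.99. Genes of one library share its fraction, preparation and depth, and these values only describe the 36 libraries.

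The 6 transcripts carried 23.7 ± 10.7 peaks per WT pellet library and 18.0 ± 8.9 per FMR1 KO pellet library (SD, n = 3), a difference of -5.67 (two-sided exact permutation p = 0.6, where 0.1 is the smallest that 3 against 3 allows). In fraction 5/6 they were 9.0 ± 4.0 and 9.67 ± 2.31 (exact permutation p = 1.0), a difference of 0.667. Without replicate 3 of both genotypes the difference was 0.5 in the pellet and 4.0 in fraction 5/6, where that replicate of WT is the library at odds with its label and held 13 of these peaks. The deposited pellet libraries held 18652 to 36435 peaks in all, and whether this count moves with the pump peaks was not tested.

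Of 96 pump sites in the pellet, 76 were found in 1 library, 13 in 2, 5 in 3 and 2 in 4. Sites of Atp1b1 recurred most, 11 of 27 in more than 1 library, against 3 of 13 for Atp1b2, 5 of 29 for Atp2b1 and 1 of 27 for Atp2a2. Peaks were also densest there, over 65.0% of the coding sequence, against 38.5% for Atp1b2, 17.9% for Atp2b1 and 20.4% for Atp2a2. Dense peaks match more readily, and whether the recurrence goes beyond that was not tested. The 4-letter motifs lay in 68.8% of the 29 nt windows at pump sites and in 55.9% of all windows along the coding sequences of the 6 pumps. They lay in 60.0% of the windows at 131908 pellet peaks, those with a full window on a listed transcript. Those peaks were counted once per library, while pump sites were merged across libraries, so the shares are not like for like.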

How the data were processed

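Ribosome-protected fragments of the pellet and of fraction 5/6, and RNA-seq of homogenate, were analysed in 36 libraries, 3 in each of 12 groups taken from the labels. The authors trimmed reads with Cutadapt 2.10, discarded reads of rRNA and small non-coding RNA by Bowtie2 2.3.5, aligned to GRCm38 with STAR 2.7.8a, marked duplicates with Picard and removed them with SAMtools 1.19.2, and deposited raw counts per gene from featureCounts 2.2.0. The use of strand and the treatment of reads with several alignments are not given in the sources used here. Removal of duplicates lowers the counts of short footprints that start at the same place, and counts have no molecular identifiers. The peak files deposited by the authors give intervals with a height in reads for 12 standard libraries, called per library and not scaled between libraries. The study describes peaks of at least 4 times a transcript's average matched within 6 nt between replicates, and whether that minimum was applied to these intervals is not stated. Here the middle of an interval stood for its summit.

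The 26 rows of other biotypes were left out, and 16588 of 16614 rows were kept. Those that passed filterByExpr over the compared groups were tested with edgeR 4.0.16 (quasi-likelihood, TMM) in R 4.3.3. Benjamini-Hochberg adjustment ran over all genes tested, with a threshold of 0.05. Each standard error was the log2 fold change divided by the square root of its F. The test was tried on simulated counts. Changes of 1 on the log2 scale were recovered in 10.2% of cases for FMR1 KO against WT in the standard pellet and in 80% for standard RNA-seq. The shares were 1% for standard enrichment of FMR1 KO and 36.4% for WT occupancy. For changes of 2 these shares were 83.7%, 92.8%, 61% and 81%. A missing call says little about a change of 1 where few were recovered. Peaks per library were compared by exact permutation. Positions come from GENCODE M21 models of GRCm38, with lengths from the coding sequence for RPFs and the whole listed transcript for RNA-seq.

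The 6 members, the gene lists and the tests were chosen with earlier results of these data known. Named in full were the 6 members, and of the relatives at most 4 that passed the test in a comparison, by smallest adjusted p, with the 2 genes most like each member. Some that this rule names are not reported here. Other relatives, named as family members, and Pptc7, Ddx3y and Fmr1 were named outside that rule. Of 31 relatives, 4 (Atp1b4, Sln, Strit1 and Arln) were not analysed here. Alternatives were library size scaling, DESeq2 1.42.0, Cdk8 left out of the library sizes, no filter on low counts, a block on replicate number and leaving out libraries. The replicate numbers deviated together in every pair only for low enrichment of WT (r = 0.19, 0.12 and 0.21), where the block called the same number, 6.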

Additional observations from a re-analysis of the deposited data

How the results depend on the processing

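Over the 17 comparisons, 28 fold changes of the 6 pumps were called. Over 412 alternatives of these called values, 293 kept direction and call, 110 kept direction only and 9 reversed. Alternatives of the uncalled values gave a call in the same direction 46 times, and the others of 20 reversals in all were uncalled values that an alternative called with the opposite sign. Scaling by library size alone called 6 in fraction 5/6 against RNA-seq of WT and 6 in occupancy of FMR1 KO, 0 in standard and 0 in low enrichment of FMR1 KO, and 5 in the preparation comparison of FMR1 KO. On that scale WT occupancy was -0.74 for Atp1b1, -1.58 for Atp1b2, -0.69 for Atp2b1, -1.91 for Atp2b2 and -1.77 for Atp2b4, and FMR1 KO occupancy -1.20, -1.89, -1.04, -2.01 and -2.17 for the same genes. Fraction 5/6 against RNA-seq was -1.37 for Atp1b1, -1.56 for Atp2a2 and -1.81 for Atp2b1 in WT, and -1.07 for Atp1b1 and -1.79 for Atp1b2 in FMR1 KO, and Atp2a2 stood at -0.19 in the preparation comparison of FMR1 KO. The scale itself moves every gene in these comparisons, as its construction sets. DESeq2 called 4 in low enrichment of FMR1 KO and 4 in the preparation comparison of FMR1 KO, where no filter called 1, and the cause was not tested.

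The block on replicate number called 6 in low enrichment and 0 in the preparation comparison of FMR1 KO, where the numbers are not shown to pair the libraries, and it changed no count by over 1.5 times elsewhere. Taking out the Pptc7 counts, in the standard RPF libraries only, left 1 call in the preparation comparison of FMR1 KO, with Atp2a2 at -0.96. It put Atp2a2 at -0.49 in fraction 5/6 against RNA-seq of FMR1 KO. Counting intervals that overlap as shared gave 4 stretches in all 6 pellet libraries in place of 0.

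Leaving out libraries gave 2 to 4 calls in WT occupancy, 0 to 5 in WT fraction 5/6 against RNA-seq, 0 to 3 in standard and 0 to 5 in low WT enrichment, 0 to 5 in the WT preparation comparison, 3 to 4 in FMR1 KO occupancy and in FMR1 KO fraction 5/6 against RNA-seq, 0 to 4 in standard and 0 to 3 in low FMR1 KO enrichment and 0 to 6 in the FMR1 KO preparation comparison. It gave -0.36 to 0.32 for Atp2b2 in WT occupancy and -0.46 to 0.53 for Atp2b1 in WT fraction 5/6 against RNA-seq. The difference in peaks per library went from -9.5 to 0.5 in the pellet and from -2 to 4 in fraction 5/6. Low counts limit the standard fraction 5/6 most, where Atp2b2 rests on 57 to 465 counts per library and Atp2b4 on 51 to 250 counts.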
